A study of Homo sapiens with 40 samples.

Results

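The solute carrier (SLC) gene family was followed through the splicing tables of cells that run on slow or fast RNA polymerase II. Members were all events whose gene symbol starts with SLC and a digit, looked up from the Ensembl identifiers of the tables. An event is 1 internal exon together with 1 splice junction that skips it, so an exon can appear with more than 1 skipping junction. The rule took 251 events of 109 genes, of 16378 events of 6976 gene identifiers in the 5 exon tables. These events covered 236 distinct exons. Of the 109 genes, 55 had 1 event, 25 had 2 and 29 had 3 or more, with a maximum of 13 in SLC37A3. A pair of the symbols do not name carriers. SLC2A4RG encodes a transcription regulator, and SLC12A2-DT is a noncoding transcript that starts beside SLC12A2 and runs away from it.

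The cells were human HEK293 Flp-in T-REx, a line of embryonic kidney origin in which a transgene can be switched on, and each line carried an α-amanitin-resistant Rpb1, the large subunit of the polymerase. The tested lines had 1 substitution in that subunit, R749H, H1106Y or E1126G, and the line they were set against had the resistant subunit without it (WT). All of them received doxycycline for 12 to 16 h to turn on the transgene and then α-amanitin for 42 h to block their own polymerase, so WT was a drug-treated transgenic line too. RNA-seq had 2 libraries each of R749H, E1126G and WT, and RASL-seq had 3 libraries each of R749H, H1106Y, E1126G and WT. RASL-seq counts ligated pairs of probes at chosen splice junctions. Each deposited table holds 1 comparison of a mutant with WT and no value per library, so no standard deviation can be given, and the depth is unknown. Whether the libraries came from separate cultures is not stated. The test behind the deposited p-values is not given either, and it is unknown whether they carry the spread between libraries or counting error alone. Every call, implied standard error and test between mutants rests on these p-values, which say nothing beyond these libraries. The tables hold no expression levels, so markers of kidney cells could not be checked.

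Solute carriers are membrane proteins that move ions, sugars, amino acids, nucleotides, vitamins and metals across the plasma membrane or the membranes of organelles, and the largest family among them, SLC25, serves mainly the inner mitochondrial membrane. Splicing happens largely while the polymerase is still transcribing, and the elongation rate sets how long a splice site is available before a competing site further along the gene appears. R749H and H1106Y are known as slow forms of the polymerase and E1126G as a fast form. The question was how the use of alternative exons responds to the rate.

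Inclusion is given as the percent of inclusion in the sum of inclusion and exclusion, computed from the ratio that the authors' deposited tables give for each genotype. A change was called where the deposited p-value was under 0.05 after Benjamini-Hochberg adjustment across its whole table, and every adjusted p below is of this kind. Standard errors are those implied by the deposited p-values, on the log2 scale of the ratio of inclusion to exclusion. Exon positions are in the GRCh37 build, counted from 1.

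In RNA-seq the SLC exons lay close to all exons of the table in length and level, and in RASL-seq less so. Among the 217 SLC events of the R749H RNA-seq table the median exon was 123 nt, against 108 nt over all 14358 events. A length that is a multiple of 3, which keeps the reading frame when the exon is skipped, occurred in 42.9% of SLC events and in 43.5% of all events. WT inclusion was above 90% in 113 SLC events, or 52.1%, against 50.8% of all events. No SLC event in that table was as short as 27 nt, while 2.10% of all events were. Stretches between the exons that flank an SLC exon had a median of 5464 nt in RNA-seq, against 5124 nt over all events. In the R749H RASL-seq table, these medians were 15376 nt for the 24 SLC events and 8009.5 nt for all 2248. Median WT inclusion there was 83.7% for SLC events and 65.0% for all events, and 45.8% of SLC events against 31.8% of all events were above 90% in WT. A length that is a multiple of 3 occurred in 41.7% of those SLC events and 56.1% of all events.

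In RNA-seq of R749H cells, 30 of 217 SLC events in 23 of 95 genes changed, 12 with higher and 18 with lower inclusion than in WT. That is 13.8% of the SLC events, beside 15.1% of all events. Higher inclusion was called in 7.07% and lower inclusion in 8.04% of all events. The SLC share was near the background, so the count says nothing particular about the family. The median log2 change over the 217 SLC events was 0.04, against -0.00 over all events, computed from the authors' deposited table. By at least 10 percentage points, 10 SLC events were higher and 15 lower, beside 655 higher and 779 lower of all 14358 events.

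In RNA-seq of E1126G cells, 10 of 216 SLC events in 8 of 99 genes changed, 2 higher and 8 lower. The SLC share was 4.63%, beside 6.48% of all events, of which 2.2% were higher and 4.27% lower. Median log2 changes were -0.20 for SLC events and -0.08 for all events in the authors' deposited table. Both mutants were compared with the same WT libraries, so their calls are not independent. Of the changed events, 8 were called in both mutants, 20 were called in R749H but not in E1126G, and 2 were called in E1126G but not in R749H. A further 2 events called in R749H were not listed in the E1126G table. Over all events too, calls were more frequent in R749H, at 15.1%, than in E1126G, at 6.48%. The same split was not made over all events, so these counts were not read as particular to the family. A call in 1 mutant alone is not a difference between the mutants. In the test between mutants described below, 4 of 191 SLC events differed, beside 1.74% of all shared events.

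**Figure D1:**
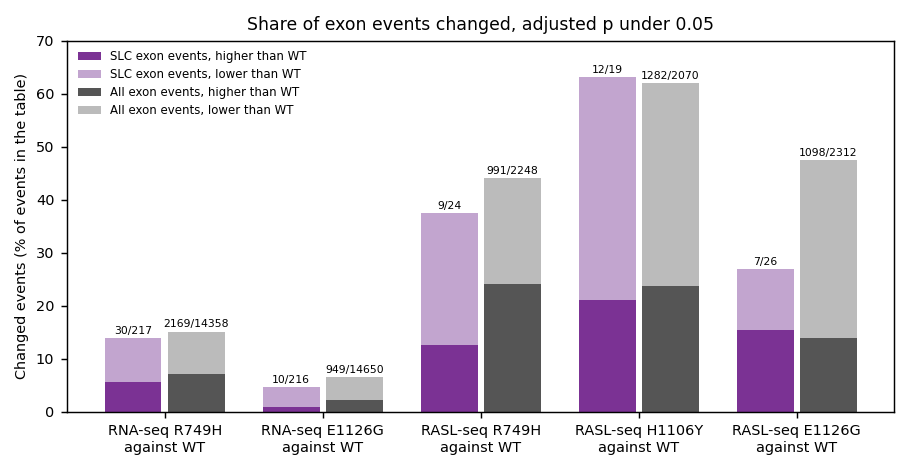
Share of events changed (adjusted p under 0.05) in each of the 5 exon comparisons with WT, as a percent of the events in the table, with SLC events beside all events and each bar split into higher and lower inclusion. The SLC bars reach 13.8% and 4.63% in RNA-seq, beside 15.1% and 6.48% for all events, and the numbers above the bars are events changed over events listed.

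The largest change of inclusion among SLC events was in SLC9A5, a sodium-proton exchanger of the plasma membrane known mainly from neurons. Its 77-nt exon (chr16:67296116-67296192, plus strand), whose length is not a multiple of 3, was included at 2.33% in R749H, at 19.4% in E1126G and at 75.0% in WT. Inclusion fell in both mutants. The authors' deposited table gives log2 changes of -6.98 for R749H (implied SE 1.05, adjusted p = 2.76e-09) and -3.64 for E1126G (implied SE 0.84, adjusted p = 0.000831). This was the only SLC9A5 event in the tables. The number of reads behind its levels is not given, and a level as low as 2.33% may rest on few. Across the sodium-proton exchangers, 1 of 3 events in R749H and 1 of 4 in E1126G changed, both times this exon. The remaining genes were SLC9A8 and SLC9B2. So few events cannot be set against the 15.1% and 6.48% of all events.

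Mitochondrial carriers were the group with the most events. In R749H RNA-seq, 10 of 54 events in 8 of 24 genes changed, 3 higher and 7 lower, which is 18.5% beside 15.1% of all events. The group is drawn by family number and includes SLC25A17, a peroxisomal carrier, without which 9 of 45 events changed in R749H and 4 of 47 in E1126G. In E1126G, 4 of 56 events in 3 genes changed, all lower, or 7.14% beside 6.48%. The median log2 changes of the group in the authors' deposited tables were -0.22 in R749H and -0.26 in E1126G.

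SLC25A36, a carrier of pyrimidine nucleotides into mitochondria, had 3 of the lower events. Its 37-nt exon (chr3:140685842-140685878) was included at 14.8% in R749H, 30.9% in E1126G and 73.6% in WT. A 103-nt form (chr3:140685776-140685878) ends at the same base, and was included at 21.0% in R749H, 37.7% in E1126G and 73.2% in WT. An 87-nt exon further upstream (chr3:140685190-140685276) was included at 3.92% in R749H, 32.1% in E1126G and 49.2% in WT. All of them are skipped by the same junction, across chr3:140682070-140689768, so their values share the exclusion reads and are not independent. In R749H the 3 exons fell, with log2 changes in the authors' deposited table of -4.01 for the 37-nt exon (implied SE 0.55, adjusted p = 4.70e-11), -3.36 for the 103-nt form (implied SE 0.51, adjusted p = 3.52e-09) and -4.57 for the 87-nt exon (implied SE 0.75, adjusted p = 6.17e-08). In E1126G the 37-nt exon and the 103-nt form fell too (adjusted p = 0.00103 and 0.00546), and the 87-nt exon did not pass the test (adjusted p = 0.466).

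Further mitochondrial carriers were among the lower events. SLC25A26 imports S-adenosylmethionine, the methyl donor. Its 157-nt exon (chr3:66286968-66287124) stood at 32.8% in R749H, 53.0% in E1126G and 71.3% in WT, and fell in R749H (adjusted p = 0.00056). SLC25A14, an uncoupling-protein-like carrier, had an 86-nt exon (chrX:129484620-129484705) at 52.9% in R749H, 63.2% in E1126G and 86.3% in WT. This exon fell in both mutants, with adjusted p = 1.32e-06 in R749H and 0.00142 in E1126G.

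SLC25A17, counted in the group, carries cofactors across the peroxisomal membrane. It had 10 events, of which 1 changed. For its 152-nt exon (chr22:41188529-41188680) with a skipping junction across 40069 nt, inclusion was 85.9% in R749H, 91.4% in E1126G and 94.9% in WT, lower in R749H (adjusted p = 0.0348). With a junction of 19897 nt the same exon stood at 96.7% in R749H and 98.6% in WT and was not called (adjusted p = 0.51). In E1126G the exon of SLC25A39 (110 nt, chr17:42397990-42398099), a carrier needed for glutathione in mitochondria, fell to 97.6%, against 99.5% in WT (adjusted p = 0.00577), and it stood at 99.4% in R749H (adjusted p = 0.919).

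The 3 mitochondrial carrier exons that rose in R749H were in SLC25A40, SLC25A35 and SLC25A46. SLC25A40 is the close relative of SLC25A39. Its 98-nt exon (chr7:87489387-87489484) was included at 73.7% in R749H, 65.0% in E1126G and 31.1% in WT, and the difference from WT passed the test in R749H (adjusted p = 0.00724) but not in E1126G (adjusted p = 0.125). SLC25A35 is a carrier whose substrate is not well established. The 76-nt exon (chr17:8193921-8193996) was included at 97.4% in R749H, 35% in E1126G and 57.9% in WT, with a rise in R749H (log2 change 4.75 in the authors' deposited table, implied SE 1.34, adjusted p = 0.00486). SLC25A46 encodes a protein of the outer mitochondrial membrane that acts in mitochondrial shape. Its 126-nt exon (chr5:110091696-110091821) rose to 13.7% in R749H, against 0.943% in WT (adjusted p = 2.18e-05), and was not listed for E1126G. SLC25A35 overlaps RANGRF and SLC25A46 overlaps TMEM232 in the RefSeq annotation of a later build. The RNA-seq kit named in the labels does not mark strand, so reads of overlapping genes cannot be told apart.

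**Figure D2:**
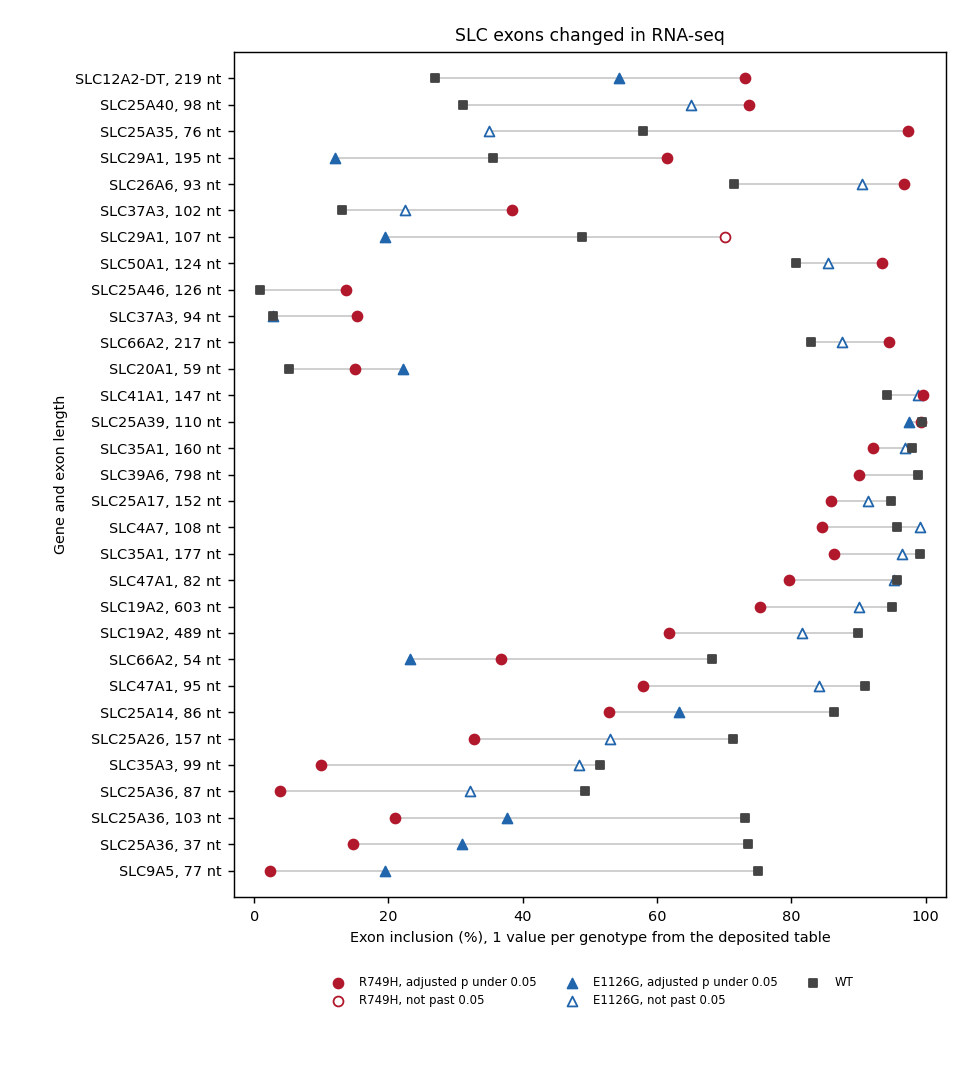
Inclusion (percent, horizontal axis) of 31 SLC exon events changed in RNA-seq of R749H or E1126G, with circles for R749H, triangles for E1126G and squares for WT. Filled symbols passed an adjusted p of 0.05 against WT. The SLC9A5 exon spans 2.33% in R749H to 75.0% in WT, and SLC25A35 and both SLC29A1 exons have R749H on the right of WT and E1126G on the left.

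Nucleoside and nucleotide-sugar carriers had 4 of 27 events changed in R749H, 1 higher and 3 lower, and 2 of 29 in E1126G, both lower. Those shares, 14.8% and 6.9%, lay near the 15.1% and 6.48% of all events. SLC29A1 is the equilibrative nucleoside transporter of the plasma membrane. Its 195-nt exon (chr6:44193710-44193904, plus strand) was included at 61.5% in R749H, at 12.0% in E1126G and at 35.6% in WT. Inclusion rose in R749H and fell in E1126G, with log2 changes of 1.54 (implied SE 0.54, adjusted p = 0.0327) and -2.01 (implied SE 0.65, adjusted p = 0.0362) in the authors' deposited tables. A 107-nt form (chr6:44193798-44193904) that ends at the same base stood at 70.2% in R749H, 19.5% in E1126G and 48.8% in WT. It fell in E1126G (adjusted p = 0.0148), and its difference in R749H did not pass the test (adjusted p = 0.0562). Both forms are skipped by the same junction and share its reads. The next exon of SLC29A1, listed as an 83-nt and an 80-nt form (chr6:44194997-44195079 and chr6:44195000-44195079), was included at 94.4% and 94.7% in R749H, at 96.0% and 96.3% in E1126G and at 93.1% and 93.5% in WT. Neither form passed the test in either mutant.

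The remaining nucleotide-sugar events were in Golgi carriers that supply glycosylation. SLC35A3 carries UDP-N-acetylglucosamine. Its 99-nt exon (chr1:100440527-100440625) was included at 10.0% in R749H, 48.4% in E1126G and 51.6% in WT, lower in R749H (log2 change -3.26 in the authors' deposited table, implied SE 0.89, adjusted p = 0.00355). SLC35A1 carries CMP-sialic acid and had 2 exons that fell in R749H. The 160-nt exon (chr6:88210226-88210385) stood at 92.1% in R749H, 96.9% in E1126G and 98.0% in WT (adjusted p = 0.013 in R749H). The 177-nt exon (chr6:88218138-88218314) stood at 86.4% in R749H, 96.6% in E1126G and 99.1% in WT (adjusted p = 3.77e-06 in R749H), for a skipping junction of 2592 nt. With a junction of 7730 nt the same exon stood at 91.97% in R749H and 98.5% in WT and was not called (adjusted p = 0.0803). Among members of the group, SLC35E2A and SLC35E2B are near-identical copies whose reads could be split between them, and neither was called.

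Amino acid carriers had 43 events in R749H RNA-seq, of which 2 changed, 1 higher and 1 lower, or 4.65% beside 15.1% of all events. In E1126G, 1 of 40 changed, with lower inclusion, or 2.5% beside 6.48% of all events. All of these calls were in 1 gene, without which no event of the group was called in RNA-seq. That gene, SLC66A2, encodes a PQ-loop membrane protein and was placed in the group by its family number. Its 54-nt exon (chr18:77693969-77694022) was included at 36.8% in R749H, 23.1% in E1126G and 68.1% in WT, and fell in both mutants (adjusted p = 0.00025 in R749H and 2.69e-07 in E1126G). The 217-nt exon further downstream (chr18:77679184-77679400) stood at 94.5% in R749H, 87.6% in E1126G and 82.9% in WT, and rose in R749H (adjusted p = 0.00892). With other skipping junctions neither exon was called: the 54-nt exon stood at 93.8% in E1126G and 96.6% in WT (adjusted p = 0.879), and the 217-nt exon at 98.3% in R749H and 94.7% in WT (adjusted p = 0.315). In the called event, the junction that skips the 54-nt exon ends at the 217-nt exon. A read across it counts against the 54-nt exon and touches the 217-nt exon. Between these exons lies an 84-nt exon (chr18:77690228-77690311), not called in either mutant. It stood at 3.23% in R749H (adjusted p = 0.0617), 26.3% in E1126G and 23.4% in WT. SLC3A2, the heavy chain that takes several amino acid light chains to the plasma membrane, had 9 events and none was called, although 3 had an unadjusted p under 0.05 in some table. SLC38A9, an arginine sensor of the lysosome, had 8 events, none called, and 1 with an unadjusted p under 0.05.

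Sugar carriers had 3 of 34 events changed in R749H, all higher, or 8.82%, beside 15.1% of all events changed and 7.07% higher. In E1126G, 0 of 29 were called, beside 6.48% of all events, and 6 had an unadjusted p under 0.05. The group, drawn by family number, includes SLC5A6, a multivitamin transporter, without which 3 of 32 events were called in R749H. SLC37A3 is a lysosomal member of the sugar-phosphate exchanger family. Its 102-nt exon (chr7:140051668-140051769) was included at 38.4% in R749H, 22.5% in E1126G and 13.1% in WT, a rise in R749H (log2 change 2.05 in the authors' deposited table, implied SE 0.44, adjusted p = 7.05e-05). A 94-nt exon of the same gene (chr7:140079014-140079107) rose to 15.3% in R749H, against 2.78% in WT (adjusted p = 0.0039), and stood at 2.86% in E1126G. Of the 13 events of SLC37A3 these were the 2 that were called. SLC50A1, a sugar uniporter, had a 124-nt exon (chr1:155109304-155109427) that rose to 93.4% in R749H, against 80.6% in WT (adjusted p = 0.000604), for a skipping junction of 1184 nt. The same exon with a junction of 1602 nt stood at 94.2% in R749H and 89.7% in WT and did not pass the test (adjusted p = 0.417), nor did it with a junction of 1164 nt, at 99.0% in R749H and 97.7% in WT (adjusted p = 0.68).

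Among carriers of organic ions and vitamins, 4 of 14 events in R749H fell and none rose, beside 15.1% of all events changed and 8.04% lower. The 4 events lay in 2 genes, SLC19A2 and SLC47A1, and exons of each gene share or adjoin a junction. In E1126G 0 of 16 were called, beside 6.48% of all events, with 1 at an unadjusted p under 0.05. SLC19A2 is the high-affinity thiamine transporter. Its 603-nt exon (chr1:169446393-169446995) was included at 75.3% in R749H, 90.1% in E1126G and 95% in WT, and its 489-nt form at 61.8% in R749H, 81.6% in E1126G and 90% in WT. Both fell in R749H (adjusted p = 0.0052 for the 603-nt and 0.0361 for the 489-nt form), and they share the skipping junction. SLC47A1 exports organic cations in exchange for protons. A pair of neighbouring SLC47A1 exons fell in R749H, the 95-nt exon (chr17:19474791-19474885) to 57.9%, against 91.0% in WT (adjusted p = 0.0147), and the 82-nt exon (chr17:19476093-19476174) to 79.6%, against 95.8% in WT (adjusted p = 0.0211). In E1126G they stood at 84.1% and 95.2%.

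Metal carriers had 2 of 20 events changed in R749H, beside 15.1% of all events, and 0 of 22 in E1126G, beside 6.48%, where 2 had an unadjusted p under 0.05. SLC39A6, a zinc importer, had a 798-nt exon (chr18:33706182-33706979) at 90.04% in R749H and 98.9% in WT (adjusted p = 0.000105). SLC41A1, a magnesium transporter, had a 147-nt exon (chr1:205767797-205767943) at 99.6% in R749H and 94.2% in WT (adjusted p = 0.00875). Of the bicarbonate and anion exchangers, 2 of 5 events changed in R749H, too few to set against the 15.1% of all events. SLC26A6 had a 93-nt exon (chr3:48669678-48669770) that rose to 96.8% in R749H, against 71.4% in WT (adjusted p = 0.0469), and stood at 90.5% in E1126G without passing the test. Its 152-nt form (chr3:48669678-48669829) stood at 98.3% in R749H and 86.5% in WT and was not called (adjusted p = 0.0728). SLC4A7, a sodium bicarbonate cotransporter, had a 108-nt exon (chr3:27420740-27420847) that fell to 84.6% in R749H, against 95.7% in WT (adjusted p = 0.0347), and stood at 99.1% in E1126G without passing the test.

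SLC20A1, a sodium-phosphate cotransporter that is also a retrovirus receptor, had the 59-nt exon (chr2:113410466-113410524) that rose in both mutants. Inclusion was 14.97% in R749H, 22.2% in E1126G and 5.13% in WT (adjusted p = 0.0491 in R749H and 0.00372 in E1126G). The other SLC event that rose in both was the 219-nt exon of the noncoding SLC12A2-DT (chr5:127417665-127417883), at 73.1% in R749H, 54.3% in E1126G and 26.95% in WT. The authors' deposited tables give it log2 changes of 2.88 in R749H (implied SE 0.55, adjusted p = 4.80e-06) and 1.69 in E1126G (implied SE 0.52, adjusted p = 0.0265). A 222-nt form (chr5:127417665-127417886) that shares 1 end with it stood at 92.3% in R749H, 72.2% in E1126G and 60% in WT. That form was not called in either mutant (adjusted p = 0.21 in R749H and 0.828 in E1126G). SLC12A2-DT overlaps the coding gene CCDC192 in RefSeq. In R749H no event of the cation-chloride cotransporters (4 events), calcium exchangers (1 event) or monocarboxylate carriers (2 events) was called in RNA-seq, and none had an unadjusted p under 0.05. These events are too few to set against the 15.1% of all events.

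**Figure D3:**
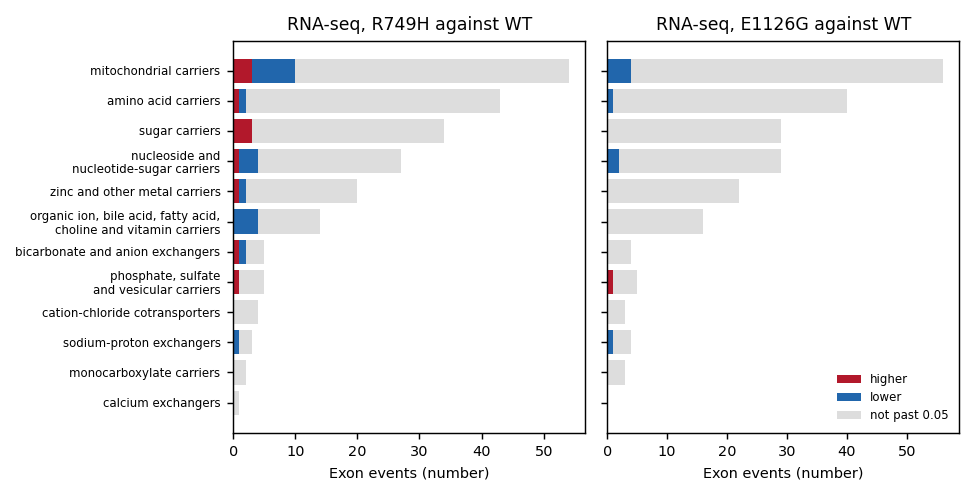
Number of SLC exon events in RNA-seq by substrate group, for R749H against WT on the left and E1126G against WT on the right, split into higher, lower and not past an adjusted p of 0.05. Mitochondrial carriers have 10 of 54 events changed in R749H and 4 of 56 in E1126G, and the sugar carriers have 3 of 34 and 0 of 29.

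Outside the family, other genes of membrane transport (ABC transporters, ion pumps, ion channels and similar) had 15 of 134 events changed in R749H RNA-seq, 3 higher and 12 lower, or 11.2%. In E1126G they had 8 of 140 changed, 3 higher and 5 lower, or 5.71%. These shares lay near those of the SLC events, 13.8% and 4.63%, and of all events, 15.1% and 6.48%.

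RASL-seq measured 29 SLC events, a set fixed by the probes, and the shares of changed events were higher in every table of that assay. In R749H, 9 of 24 SLC events changed, 3 higher and 6 lower. That is 37.5%, beside 44.1% of all events, of which 24% were higher and 20.1% lower. In H1106Y, 12 of 19 changed, 4 higher and 8 lower, or 63.2%, beside 61.9% of all events, with 23.7% higher and 38.2% lower. In E1126G, 7 of 26 changed, 4 higher and 3 lower, or 26.9%, beside 47.5% of all events, with 13.9% higher and 33.6% lower. With so few SLC events, no share was read as particular to the family. Median log2 changes of the SLC events in the authors' deposited tables were -0.27 in R749H, -0.81 in H1106Y and -0.32 in E1126G, and those of all events were 0.05, -0.33 and -0.37.

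In the amino acid carriers, SLC7A6 encodes a light chain that pairs with SLC3A2 to exchange cationic for neutral amino acids. Its 145-nt exon (chr16:68324299-68324443) was included at 59.4% in R749H, 33.3% in H1106Y, 72.1% in E1126G and 83.4% in WT. It was lower in all 3 mutants, with log2 changes in the authors' deposited tables of -1.78 in R749H (implied SE 0.40, adjusted p = 3.89e-05), -3.33 in H1106Y (implied SE 0.45, adjusted p = 5.81e-13) and -0.96 in E1126G (implied SE 0.36, adjusted p = 0.0198). SLC7A6 overlaps SLC7A6OS in RefSeq. SLC7A2, a transporter of cationic amino acids, had a 146-nt exon at 2.75% in H1106Y and 6.01% in WT (adjusted p = 0.0296). SLC38A6, of the family of sodium-coupled neutral amino acid transporters, had a 54-nt exon (chr14:61510168-61510221) that fell to 73.1% in H1106Y, against 96.6% in WT (adjusted p = 4.49e-07). The same exon stood at 96.4% in R749H and 96.5% in E1126G. The 106-nt exon of SLC38A6 (chr14:61453770-61453875), listed for R749H and for no other mutant, fell to 0.279% in R749H, against 1.16% in WT (adjusted p = 0.00758). Both levels are near 0. SLC38A6 overlaps the coding gene TRMT5 in RefSeq.

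The 160-nt exon of SLC35A1 was lower in R749H and H1106Y, at 87.1% in R749H, 50% in H1106Y, 95.03% in E1126G and 94.6% in WT. The log2 changes in the authors' deposited tables were -1.39 in R749H (implied SE 0.35, adjusted p = 0.000271), -4.14 in H1106Y (implied SE 0.40, adjusted p = 7.38e-24) and 0.11 in E1126G (implied SE 0.42, adjusted p = 0.847). SLC35A3 had its 99-nt exon at 3.28% in R749H, 5.20% in H1106Y, 4.12% in E1126G and 5.40% in WT, lower in R749H (adjusted p = 0.00502). SLC16A10, a carrier of aromatic amino acids that sits in the monocarboxylate family, had a 32-nt exon (chr6:111514496-111514527) at 13.1% in R749H, 5.70% in H1106Y, 12.9% in E1126G and 19.9% in WT. It fell in H1106Y (adjusted p = 0.00103) and did not pass the test in the other mutants.

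Among ion carriers, SLC24A2 exchanges sodium for calcium and potassium. The 51-nt exon of SLC24A2 (chr9:19597227-19597277), listed for E1126G and for no other mutant, stood at 41.2% in E1126G and 83.9% in WT (log2 change -2.90 in the authors' deposited table, implied SE 0.83, adjusted p = 0.00143). SLC39A9, a zinc transporter, had a 367-nt exon (chr14:69925080-69925446) that rose to 98.8% in H1106Y and 98.4% in E1126G, against 97.4% in WT (adjusted p = 0.000408 and 0.0141), and stood at 97.5% in R749H.

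Mitochondrial carriers in RASL-seq had 5 of 7 events changed in R749H (3 higher, 2 lower), 5 of 6 in H1106Y (3 higher, 2 lower) and 3 of 8 in E1126G (all higher), beside 44.1%, 61.9% and 47.5% of all events in those tables. With 4 of these events in SLC25A26, which share junctions, the counts were not read as particular to the group. SLC25A14 had a 93-nt exon (chrX:129493021-129493113) that was included at 6.31% in R749H, 32.9% in H1106Y, 2.25% in E1126G and 1.94% in WT. The rise had log2 values of 1.77 in R749H (implied SE 0.26, adjusted p = 1.30e-10) and 4.63 in H1106Y (implied SE 0.19, adjusted p = 4.39e-126) in the authors' deposited tables, and E1126G did not pass the test (adjusted p = 0.332). The 37-nt exon of SLC25A36 stood at 27.5% in R749H, 28.9% in E1126G and 53.2% in WT, lower in R749H (adjusted p = 0.0489) and without a call in E1126G (adjusted p = 0.121). SLC25A16, linked to coenzyme A in mitochondria, had a 102-nt exon (chr10:70276841-70276942) that fell to 1.20% in R749H, against 2.49% in WT (adjusted p = 0.0249), and stood at 2.68% in H1106Y and 1.84% in E1126G.

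SLC25A26 had 4 RASL-seq exons, all of them changed in some mutant and all within chr3:66354877-66413353. In order along the gene, the 85-nt exon (chr3:66354877-66354961) stood at 0.749% in R749H, 0.296% in H1106Y, 1.26% in E1126G and 0.907% in WT. The 45-nt exon (chr3:66396788-66396832) stood at 99.81% in R749H, 99.78% in H1106Y, 99.80% in E1126G and 99.60% in WT. The 54-nt exon (chr3:66406455-66406508) stood at 9.05% in R749H, 10.2% in H1106Y, 3.71% in E1126G and 3.45% in WT. For the 70-nt exon (chr3:66413284-66413353) the values were 99.66% in R749H, 98.38% in H1106Y, 99.89% in E1126G and 99.65% in WT. The 54-nt exon rose in R749H (adjusted p = 1.03e-14) and H1106Y (adjusted p = 5.52e-20). The 45-nt exon rose in all 3 mutants, by 0.207 percentage points in R749H, 0.176 in H1106Y and 0.205 in E1126G (adjusted p = 0.00179, 0.0217 and 3.08e-05). The 85-nt and 70-nt exons were lower in H1106Y (adjusted p = 9.99e-07 and 2.68e-09) and higher in E1126G (adjusted p = 0.00482 and 0.00105), by at most 1.27 percentage points. The junction that joins the 45-nt to the 70-nt exon skips the 54-nt exon, so the values of these exons share probes or reads. SLC25A26 overlaps LRIG1 in RefSeq.

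**Figure D4:**
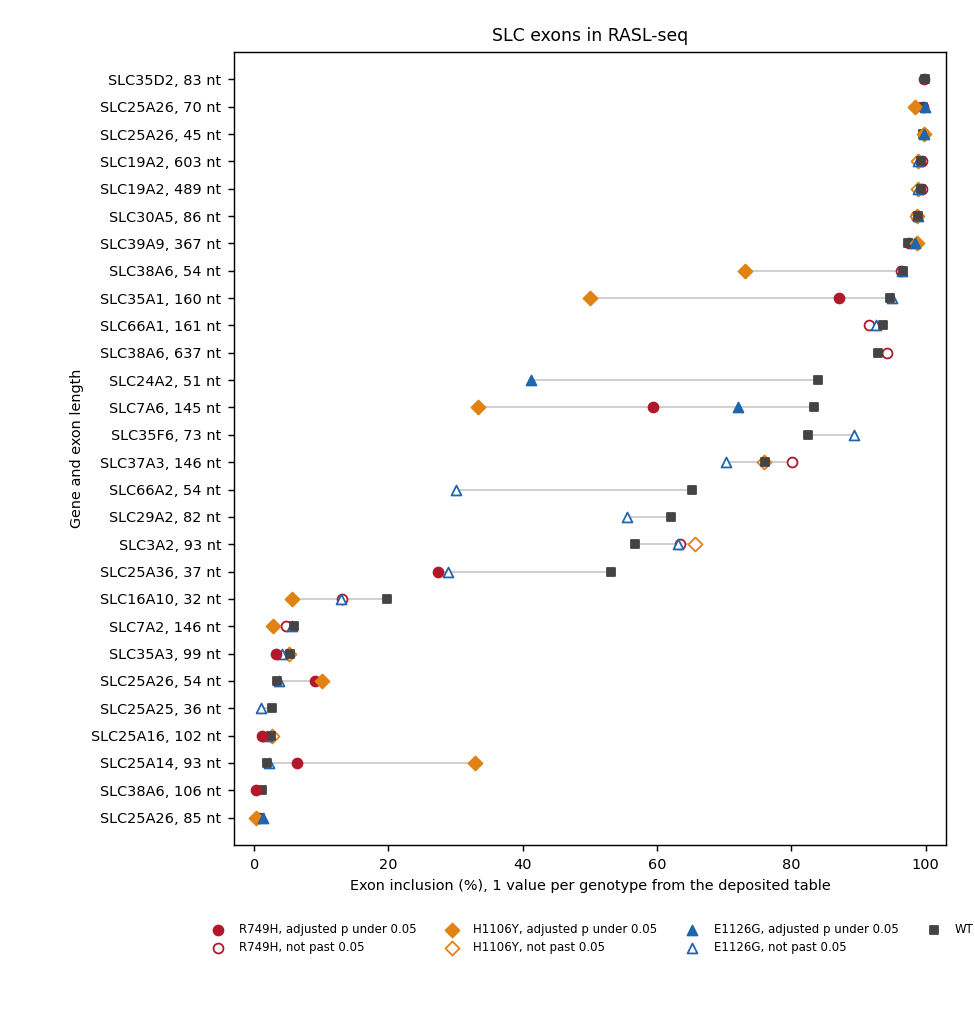
Inclusion (percent, horizontal axis) of 28 SLC exon events in RASL-seq, with circles for R749H, diamonds for H1106Y, triangles for E1126G and squares for WT. Filled symbols passed an adjusted p of 0.05 against WT. H1106Y stands far from WT for SLC35A1 (50% against 94.6%), SLC7A6 (33.3% against 83.4%) and SLC25A14 (32.9% against 1.94%).

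The mutants were compared with each other by an approximate z test on the difference of their log2 changes, with errors implied by the deposited p-values and adjustment over all events shared by 2 tables. This test treats the comparisons as independent although they share WT libraries. Between R749H and E1126G in RNA-seq, 4 of 191 SLC events differed, beside 1.74% of all shared events. The exons were those of SLC29A1, SLC25A35 and SLC25A36. For the 195-nt exon of SLC29A1, 61.5% in R749H against 12.0% in E1126G gave a log2 difference of 3.55 ± 0.84 (SE, adjusted p = 0.00473), and for its 107-nt form 70.2% against 19.5% gave 3.28 ± 0.76 (adjusted p = 0.00348). SLC25A35, with 97.4% in R749H and 35% in E1126G, differed by 6.10 ± 1.71 (adjusted p = 0.027). The 87-nt exon of SLC25A36, with 3.92% in R749H and 32.1% in E1126G, differed by -3.54 ± 1.0 (adjusted p = 0.029). The SLC9A5 exon was not among the events that differed, although its inclusion was 2.33% in R749H and 19.4% in E1126G.

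In RASL-seq, R749H and E1126G differed in 5 of 21 SLC events, beside 33.8% of all shared events. R749H and H1106Y differed in 7 of 19, beside 41.5%, and H1106Y and E1126G in 7 of 19, beside 49.2%. None of these shares was read as particular to the family. SLC35A1, SLC25A14 and the 85-nt and 70-nt exons of SLC25A26 differed in all 3 pairs, the SLC25A26 exons by small differences in percentage points. For the 160-nt exon of SLC35A1 the log2 difference was -1.51 ± 0.55 between R749H and E1126G (adjusted p = 0.0215), 2.75 ± 0.53 between R749H and H1106Y (adjusted p = 1.91e-06) and -4.26 ± 0.58 between H1106Y and E1126G (adjusted p = 2.56e-12). Both slow forms differed from each other in this exon, with an inclusion of 87.1% in R749H and 50% in H1106Y. The 54-nt exon of SLC38A6 and the 145-nt exon of SLC7A6 differed between H1106Y and each of the other mutants.

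For R749H, 18 SLC exons were measured by both assays, which used separate libraries. The sign of the change was the same in 10 of them, or 55.6%, beside 74% of the 1648 exons of all genes. Both forms of the SLC19A2 exon are counted, although they are not independent. With so few exons, the share was not read as particular to the family. The exons called in both assays were the 37-nt exon of SLC25A36, the 160-nt exon of SLC35A1 and the 99-nt exon of SLC35A3, all 3 lower in both. They are 16.7% of the 18 exons, beside 276 of 1648 or 16.7% over all genes. Across the 18 exons Pearson's r of the log2 changes was 0.34 and Spearman's rho 0.28, given as a description, since exons of a gene share junctions. Over all 1648 exons r was 0.64 and rho 0.64. The SLC19A2 exons were called lower in RNA-seq and stood at 99.46% in R749H and 99.35% in WT in RASL-seq, where both forms carry the same values. The 93-nt exon of SLC25A14, called higher in RASL-seq, stood in RNA-seq at 4.62% in R749H and 3.85% in WT.

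For E1126G, 16 SLC exons were shared, 10 of them with the same sign, or 62.5%, beside 73.7% of all shared exons. None of the 16 was called in both assays for E1126G, beside 178 of 1674 exons over all genes, or 10.6%. With so few SLC exons, neither count was read as particular to the family. Across these 16 exons r was 0.83 and rho 0.73, beside 0.59 and 0.59 over all 1674 exons. The 54-nt exon of SLC66A2 and the 37-nt exon of SLC25A36 were called lower in E1126G RNA-seq and had values in the same direction in RASL-seq without passing the test, 30% in E1126G against 65.2% in WT and 28.9% in E1126G against 53.2% in WT.

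WT levels of the 18 shared SLC exons had a Pearson's r of 0.90 and a Spearman's rho of 0.80 between assays, given as a description. In 4 of the 18 exons WT differed by more than 20 percentage points. Over all 1648 shared exons, r was 0.71 and rho 0.73, and 605 exons differed by that much. SLC35A3 had 51.6% in RNA-seq and 5.40% in RASL-seq, and SLC25A16 had 60.0% and 2.49%. The gap was smaller for SLC37A3, with 99.0% and 76.1%, and for SLC25A36, with 73.6% and 53.2%. Levels are therefore compared within an assay.

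**Figure D5:**
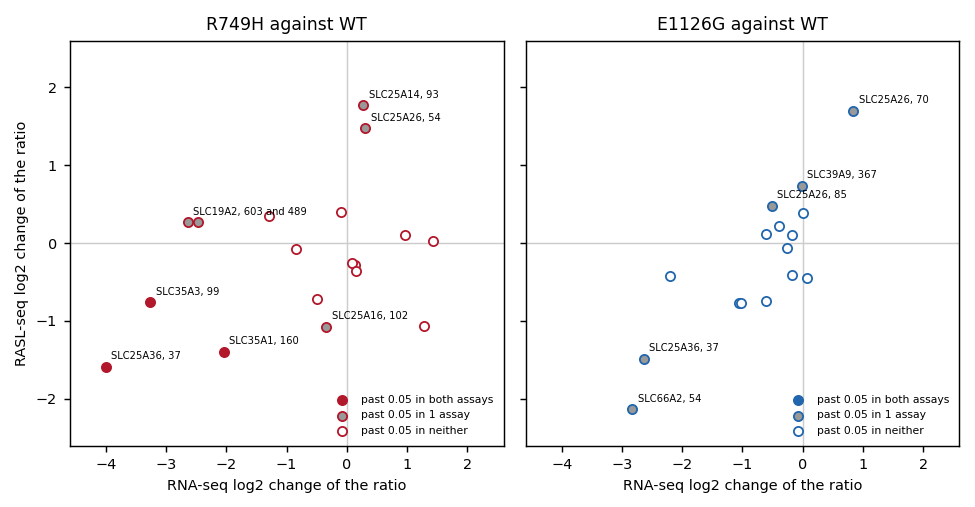
Log2 change of the ratio of inclusion to exclusion in RNA-seq (horizontal axis) and in RASL-seq (vertical axis) for SLC exons measured by both, from the authors' deposited tables, with R749H against WT on the left (18 exons) and E1126G against WT on the right (16 exons). In R749H the 3 solid points, SLC25A36, SLC35A3 and SLC35A1, passed the test in both assays and lie at the lower left, and the SLC19A2 points, at RNA-seq changes of -2.64 and -2.47, lie just above 0 in RASL-seq.

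Retained introns were listed for 8 SLC genes, found by position within the stretch covered by a gene's exon events on the same strand. Higher values were taken to mean more retention, a direction that no source used here states. Of the 10 introns, 1 is a 1-nt gap in SLC37A4, too short to be an intron, at 16.5% in R749H, 20.4% in E1126G and 19.2% in WT. In R749H, 1 of 10 changed, beside 18.9% of all introns. It was a 321-nt intron (chr11:118898583-118898903) of SLC37A4, the glucose-6-phosphate transporter of the endoplasmic reticulum, retained at 55.7% in R749H and 28.4% in WT. The authors' deposited table gives a log2 change of 1.66 (implied SE 0.38, adjusted p = 0.000184). The same intron stood at 38.3% in E1126G (adjusted p = 0.422). In E1126G, 0 of 10 introns passed the adjusted threshold, beside 9.18% of all introns, and 1 had an unadjusted p under 0.05. That intron, 2967 nt long in SLC39A9 (chr14:69925447-69928413), stood at 92.0% in E1126G and 97.8% in WT (adjusted p = 0.0857).

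In all, 46 of the 251 events in 32 of the 109 genes were called in some exon table, and 205 events were called in none. That is 18.3% of the SLC events, beside 24.1% of all 16378 events. Every group held genes without a call, such as SLC25A23 and SLC25A29 with 4 events each among the mitochondrial carriers, SLC29A2 and SLC35B1 with 5 each among the nucleoside and nucleotide-sugar carriers, and SLC2A8 with 5 among the sugar carriers. Events without a call in R749H RNA-seq numbered 187, with a median absolute difference of 2.84 percentage points. Of these, 34 differed by 10 points or more, a count not made over all events. The largest such differences were a 76-nt exon of SLC2A11 at 94.1% in R749H and 60.0% in WT (adjusted p = 0.0789), and, in E1126G, a 42-nt exon of SLC66A3 at 33.3% in E1126G and 92.5% in WT (adjusted p = 0.132), both singled out after their values were seen.

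Of 14 events listed in all 5 exon tables, none was called in all of them. The events called in every table that listed them, with at least 3 such tables, were the 145-nt exon of SLC7A6, lower in 3 RASL-seq tables, and the 45-nt exon of SLC25A26, higher in 3. With another skipping junction, that 45-nt exon was listed in E1126G RNA-seq at 96.1% in E1126G and 97.0% in WT and was not called (adjusted p = 0.908). Events called higher in one table and lower in another numbered 3, the 195-nt exon of SLC29A1 and the 70-nt and 85-nt exons of SLC25A26. The matching counts over all events were not made, so none of these was read as particular to the family.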

How the data were processed

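Per the labels, RNA-seq reads were 100 bp pairs, and TopHat 1.4.1, Bowtie 0.12.7 and edgeR 3.7.17 are named in the submitters' processing notes without a role for each. GRCh37 is the build per the same notes. The first value of each event that the authors deposited is the natural log of the WT inclusion to exclusion ratio, and the second value compares mutant with WT as a log2 ratio. An unadjusted p-value is the third deposited value, and no source used here gives its test. Tables that carry a code in their name belong to R749H by that genotype's sample labels. To check the log bases, ratios were tested for being whole-number ratios, with a relative tolerance of 1e-09 and denominators up to 300. Under the natural log 62.9% to 94.4% of WT ratios passed, against at most 0.396% with log2, and with mutant over WT 63.5% to 95.2% of mutant ratios passed, against 5.36% to 22.5% with the opposite sign. WT values were identical in all tables of an assay (13284 of 13284 shared RNA-seq events).

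Percent inclusion, Benjamini-Hochberg adjustment over each whole table at 0.05, implied errors and the z test between mutants were computed with Python 3.11.15. The packages were pandas 2.3.3, numpy 2.4.6 and scipy 1.17.1. Skipping has 1 junction and inclusion has more, and probes ligate unequally in RASL-seq; levels carry no correction for either. Symbols were found for 6848 of 6976 gene identifiers. Named events were, in each exon comparison, up to 8 called events higher and up to 8 lower by percentage points, events called in both assays or in every table of at least 3, all events of SLC9A5 and SLC29A1, and up to 4 each way between mutants, 37 events of 26 genes. The results of 2 genes are counted but not reported here. The other called events described were added after their values were seen. Members and lists were chosen with earlier results of these data known, and lists group SLC families by substrate. Alternatives were thresholds of 0.01 and 0.1, Benjamini-Yekutieli adjustment, WT inclusion of 5% to 95% and changes of at least 10 points. Others were direction around the median, 1 row per exon, and no antisense or divergent transcripts or pseudogenes. Between mutants, the smaller of the 2 implied variances was also subtracted, as an upper bound on the shared WT variance. GRO-seq is not analysed here. No sequences are shown, because no genome of the build was used.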

Additional observations from a re-analysis of the deposited data

Results flagged for a closer look

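The exons below are listed because their changes in 2 mutants differ by the approximate z test between mutants, which shares WT libraries. In RNA-seq, R749H minus E1126G gave log2 differences of 6.10 for SLC25A35 (76 nt), -3.54 for SLC25A36 (87 nt), 3.55 for SLC29A1 (195 nt) and 3.28 for SLC29A1 (107 nt). In SLC29A1 the 2 forms share their skipping junction and count as 1 observation.

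In RASL-seq, R749H minus E1126G gave -0.76, 1.37 and -1.67 for the 85-nt, 54-nt and 70-nt exons of SLC25A26, -1.51 for SLC35A1 (160 nt) and 1.55 for SLC25A14 (93 nt). R749H minus H1106Y gave 3.30 for SLC38A6 (54 nt), -1.02 for SLC39A9 (367 nt), 1.55 for SLC7A6 (145 nt), 1.34 and 2.26 for the 85-nt and 70-nt exons of SLC25A26, 2.75 for SLC35A1 and -2.87 for SLC25A14. H1106Y minus E1126G gave -3.32 for SLC38A6, -2.37 for SLC7A6, -2.10, 1.56 and -3.94 for the 85-nt, 54-nt and 70-nt exons of SLC25A26, -4.26 for SLC35A1 and 4.41 for SLC25A14. The differences of the 85-nt and 70-nt exons of SLC25A26 are between levels that all lie under 1.3% or above 98%, so a large log2 difference there is a small difference in percentage points.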

How the results depend on the processing

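No paired analysis was possible because the deposited tables hold no value per library, and no library could be left out for the same reason. Over 109 single values, 837 alternative values were computed. Of these, 782 kept their direction and side of the threshold, 50 lost the call, 5 gained one and 0 changed direction. Most of these alternatives cannot change a direction, so that 0 was largely fixed in advance. Values that an alternative dropped were left out of the tally. With WT inclusion of 5% to 95%, 75 of the 109 values stayed the same, 1 gained a call and the rest were not scored. At a threshold of 0.1, R749H RNA-seq had 48 changed SLC events (20 higher, 28 lower) and E1126G had 1 changed intron, while Benjamini-Yekutieli adjustment left 17 (6 higher, 11 lower) in R749H and 5 (1 higher, 4 lower) in E1126G. Restricting RASL-seq to exons with a WT inclusion of 5% to 95% left 4 of 11 changed in R749H, 5 of 8 in H1106Y and 3 of 14 in E1126G, none of them higher. Requiring 10 percentage points left 2 of 24 SLC events in R749H, 6 of 19 in H1106Y and 3 of 26 in E1126G. Over all events, 376 of 2248 were left in R749H, 680 of 2070 in H1106Y and 414 of 2312 in E1126G. Both restrictions drop events by construction, and every SLC rise in RASL-seq but that of SLC25A14 in H1106Y was below 10 points. For the other alternatives no counts over all events are given here, so their counts were not read as particular to the family. Between R749H and E1126G, a threshold of 0.01 and Benjamini-Yekutieli adjustment each left 2 events in RNA-seq and 2 in RASL-seq. Subtracting the smaller of the 2 implied variances, the most that the shared WT could contribute, raised the RNA-seq count to 12 of 191. This shrinks the error by construction, and the WT part itself is unknown. Depth is unknown, so how many reads limit an event cannot be given.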
